A study of Sus scrofa domesticus with 34 samples.

Results

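FOS, FOSB, JUN, JUNB, EGR1, NR4A1, IER2 and ARC are immediate early genes, and their transcripts were followed across 4 vitamin D diets in pigs. The 8 genes were chosen by symbol, as 8 of the 31907 genes counted in each library, because an earlier look at the same counts set 25(OH)D against increased cholecalciferol and found FOS, EGR1 and NR4A1 on the lower side and JUN on the higher. That pair of diets is therefore given below as a description, without a test. Each of 34 pigs gave 1 library made from the 3′ ends of messenger RNA. The diets were 25(OH)D alone (calcidiol, 2000 IU per kg of feed for growers, later 1500 IU per kg; 4 females and 4 castrated males), a combination (2000 and then 1500 IU per kg of cholecalciferol with 1000 IU per kg of 25(OH)D in both phases; 4 females and 4 castrated males), increased cholecalciferol (3000 and then 2500 IU per kg; 6 females and 4 castrated males) and standard cholecalciferol (2000 and then 1500 IU per kg; 4 females and 4 castrated males), which was the control. Every animal received vitamin D in one of these forms, so no diet was free of it.

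The tissue was labelled muscle, and the transcripts went only partly with that label. The 6 skeletal muscle markers that could be identified of 13 listed summed to a median of 2623 CPM (counts per 1000000 counts), with libraries between 866 and 6562 CPM. The 7 identified neuron markers of 8 listed summed to a median of 5100 CPM (3636 to 8046 CPM), and the 6 identified oligodendrocyte markers of 7 to a median of 5033 CPM (2100 to 11797 CPM). At the median, the neuron and oligodendrocyte lists thus summed to more than the muscle list, though the lists hold different genes, and the levels below are those of whole samples. In bulk RNA, fewer cells of a type and less RNA per cell cannot be told apart. Libraries held 1.34 to 30.4 M gene counts (M is 1000000, median 6.67 M), and the depth followed the number in the name of the deposited count table: 4.08 to 13.2 M for numbers 1 to 24, 16.8 to 30.4 M for numbers 25 to 29, and 1.34 to 2.69 M for numbers 30 to 34. The shallow libraries of numbers 30 to 34 were 4 of the combination and 1 of 25(OH)D, so that depth and diet partly coincide. Numbers 1 to 24 held 7 libraries of 25(OH)D, 3 of the combination, 9 of increased and 5 of standard cholecalciferol.

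Immediate early genes are transcribed within minutes of a stimulus, without new protein synthesis, when kinases of the MAPK cascade and calcium signals activate the transcription factors SRF, ELK and CREB at their promoters. In neurons they are widely used as marks of recent activity. Their proteins then act in different ways: FOS and FOSB pair with JUN or JUNB to form the AP-1 transcription factor, EGR1 is a zinc finger factor, NR4A1 is an orphan nuclear receptor, IER2 is a small nuclear protein, and ARC acts at synapses, where it promotes removal of AMPA receptors.

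The genes were read by their Ensembl identifiers: FOS (ENSSSCG00000002383), FOSB (ENSSSCG00000031616), JUN (ENSSSCG00000031912), JUNB (ENSSSCG00000013735), EGR1 (ENSSSCG00000014336), NR4A1 (ENSSSCG00000031321), IER2 (ENSSSCG00000013753) and ARC (ENSSSCG00000038965). Of the 8 genes, JUNB had almost no reads and JUN had few. Since the kit makes about 1 read per transcript at its 3′ end, CPM is not divided by gene length. Comparing genes on that scale assumes that each gene model covers the 3′ end of its transcript, which was not tested. The median over 34 libraries was 123.6 CPM for ARC, 72.4 CPM for EGR1, 31.4 CPM for FOS, 28.9 CPM for NR4A1, 13.2 CPM for FOSB, 12.7 CPM for IER2 and 2.95 CPM for JUN. Neighbours in this order were clearly apart within most libraries, with ARC above EGR1 in 27 of 34 and NR4A1 above FOSB in 33 of 34. FOS and NR4A1 were not apart (FOS higher in 18 of 34 libraries), nor were FOSB and IER2 (FOSB higher in 16 of 34). JUN rested on few reads, between 1 and 143 per library, so its values carry more counting error than those of the other genes tested.

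JUNB, the JUN-family partner that often restrains JUN, was listed at 0 reads in 30 of 34 libraries and had 7 reads in all, 2 with 25(OH)D, 1 with the combination, 3 with increased and 1 with standard cholecalciferol, each from 1 library of a female. A count of 0 allows up to 2.24 CPM in the shallowest library and 0.0988 CPM in the deepest (3 counts over the total, counting error only). That limit holds for reads assigned to the JUNB gene model. Whether this model covers the 3′ end of the transcript was not tested. JUNB did not pass the filter on low counts, and the fits below concern the other 7 genes; the families of correlations also count JUNB. With the score described below it had r = −0.24 and rho = −0.29 (adjusted permutation p = 0.173 and 0.0203), values that rest on the 4 libraries with reads. The filter keeps genes with enough reads in about as many libraries as the smallest diet holds.

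No member was called between any of the diets tested, and the libraries of the 4 diets overlapped for each gene. FOS, which in AP-1 binds DNA as a dimer with a JUN protein, had a lowest, median and highest level of 11.6, 25.7 and 33.7 CPM with 25(OH)D, of 22.5, 31.8 and 127.7 CPM with the combination, of 22.9, 38.4 and 128.6 CPM with increased cholecalciferol, and of 13.2, 23.0 and 74.7 CPM with standard cholecalciferol. All 4 ranges overlapped, and the 25(OH)D libraries were the ones without a high value. FOSB had 5.07, 8.87 and 20.4 CPM with 25(OH)D, 8.61, 11.5 and 15.4 CPM with the combination, 7.34, 14.8 and 45.0 CPM with increased cholecalciferol, and 5.78, 14.1 and 18.8 CPM with standard cholecalciferol. Its ranges overlapped as well, with the 2 highest FOSB libraries in the group on increased cholecalciferol. JUN, the DNA-binding partner of FOS in AP-1, had 0.685, 3.36 and 15.0 CPM with 25(OH)D, 1.17, 4.09 and 6.31 CPM with the combination, 0.674, 2.19 and 4.82 CPM with increased cholecalciferol, and 1.79, 3.60 and 6.72 CPM with standard cholecalciferol. The value of 15.0 CPM came from 1 castrated male, 25(OH)D replicate 3, and every other library of the study was at 6.72 CPM of JUN or below.

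EGR1 had 16.2, 54.3 and 82.1 CPM with 25(OH)D, 27.1, 46.0 and 98.2 CPM with the combination, 39.2, 80.8 and 234.2 CPM with increased cholecalciferol, and 15.3, 84.8 and 119.5 CPM with standard cholecalciferol. NR4A1 had 5.29, 22.7 and 44.4 CPM with 25(OH)D, 16.6, 28.3 and 55.3 CPM with the combination, 13.5, 43.1 and 60.9 CPM with increased cholecalciferol, and 18.2, 35.5 and 50.7 CPM with standard cholecalciferol. For both genes the medians of 25(OH)D and the combination lay under those of the cholecalciferol diets, inside ranges that overlapped throughout. ARC had 33.7, 128.2 and 250.6 CPM with 25(OH)D, 19.6, 86.0 and 142.6 CPM with the combination, 16.6, 135.7 and 257.4 CPM with increased cholecalciferol, and 13.8, 154.6 and 222.8 CPM with standard cholecalciferol. IER2 had 8.07, 10.5 and 21.2 CPM with 25(OH)D, 7.94, 12.8 and 22.6 CPM with the combination, 7.51, 12.9 and 28.9 CPM with increased cholecalciferol, and 7.71, 13.6 and 25.9 CPM with standard cholecalciferol. In CPM, ARC had the widest range of any member in each diet, and the ranges of IER2 were alike in all of them.

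**Figure D1:**
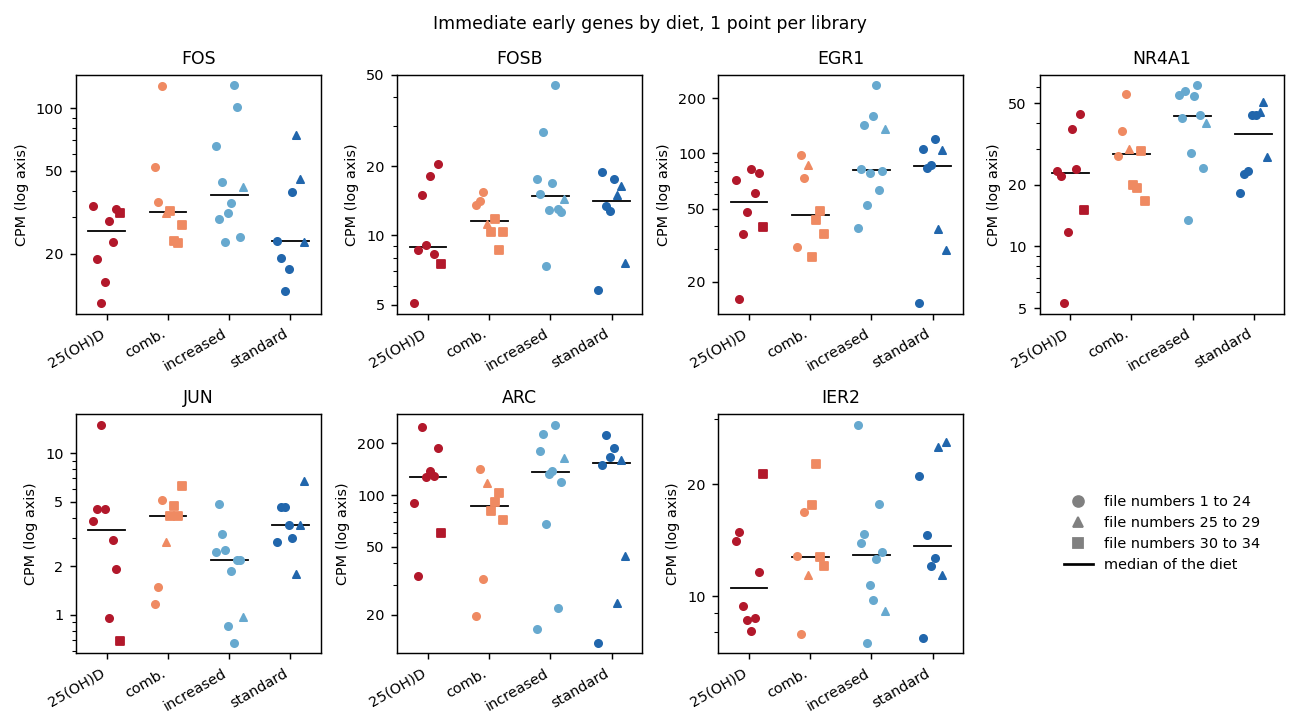
Level of each of the 7 countable genes (CPM, log axis) in every library, by diet, with 1 point per library, the shape giving the run of file numbers and the bar the median of the diet. The diets overlap for every gene, and the JUN point at 15.0 CPM is 25(OH)D replicate 3.

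The other 5 pairs of diets were tested with edgeR's quasi-likelihood test, fitted to all 13974 genes that passed the filter with diet and sex as terms, and adjusted by Benjamini-Hochberg over all of them. Of these pairs, 4 include the 25(OH)D or the increased cholecalciferol libraries that chose the genes, so the direction of FOS, EGR1, NR4A1 and JUN in them is not independent of that choice. Only the combination against standard cholecalciferol uses neither group. For 25(OH)D against standard cholecalciferol, 0 of 7 members and 0 of 13974 genes passed an adjusted p of 0.05 (0% called), and at an unadjusted p under 0.05 there were 0 members and 452 genes (3.23%). NR4A1 differed by −0.57 (SE 0.31, log2) and IER2 by −0.47 (SE 0.26), and all 7 adjusted p were 1.00. The median of the 7 differences was −0.42, against −0.01 over all genes. For the combination against standard cholecalciferol, again 0 members and 0 genes passed (0%), with 0 members and 607 genes (4.34%) at the unadjusted level. The differences ran from −0.55 for ARC (SE 0.51) to 0.46 for FOS (SE 0.39), with a median of −0.20, and the median over all genes was close to 0.

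Increased against standard cholecalciferol likewise gave 0 members and 0 genes (0%), beside 0 members and 1086 genes (7.77%) at the unadjusted level. FOS was at 0.71 (SE 0.36, adjusted p = 0.640) and JUN at −0.72 (SE 0.39, adjusted p = 0.643), opposite in sign, and neither passed. These 3 comparisons share the same 8 control libraries, so their values are set side by side without being counted as separate evidence. For the combination against increased cholecalciferol, 0 members and 0 genes passed (0%), and 1 member and 578 genes (4.14%) were under the unadjusted 0.05. That member was EGR1, at −0.93 (SE 0.36, 95% interval −1.66 to −0.19, adjusted p = 0.931). For 25(OH)D against the combination, 0 members and 0 genes passed (0%), and 1 member and 1058 genes (7.57%) were under the unadjusted level. There the member was FOS, at −0.88 (SE 0.40, 95% interval −1.68 to −0.08, adjusted p = 0.653), and without combination replicate 3, whose FOS level was 127.7 CPM, the difference was −0.42. In file numbers 1 to 24, with 3 combination libraries, EGR1 was at −0.53 in the combination against increased cholecalciferol and FOS at −1.63 in 25(OH)D against the combination, and 0 members passed. There FOS was at 0.06 in 25(OH)D against standard cholecalciferol, at 1.69 in the combination against standard and at 1.27 in increased against standard cholecalciferol, and again 0 members passed. DESeq2 and limma-voom with the same design also called 0 members and 0 genes in each of these 5 pairs.

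The intervals show how much these data leave possible. For FOS, 25(OH)D against standard cholecalciferol had a 95% interval of −1.20 to 0.37 on the log2 scale, and increased against standard cholecalciferol one of −0.03 to 1.45. For ARC the same intervals were −0.93 to 1.08 and −0.83 to 1.11, the widest of any member in both comparisons.

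Between 25(OH)D and increased cholecalciferol, the pair that chose the genes, 6 of the 7 were below 0 and 1 above, and 0% of all genes passed an adjusted p of 0.05 (12% were under the unadjusted level), from which nothing is read about the members. The differences were −1.13 for FOS, −0.97 for EGR1, −0.84 for NR4A1, −0.63 for FOSB, −0.21 for IER2, −0.06 for ARC and 0.87 for JUN (log2). Leaving out 1 library at a time, FOS ran from −1.22 to −0.87, EGR1 from −1.11 to −0.78 and NR4A1 from −1.08 to −0.70. JUN was at 0.39 without 25(OH)D replicate 3, and its highest value was 1.04. In file numbers 1 to 24, FOS was at −1.20, EGR1 at −0.77, NR4A1 at −0.72 and JUN at 0.80. The 2 libraries at the ends of the pattern were 1 from each diet: increased cholecalciferol replicate 7, a female, had the highest FOS (128.6 CPM), FOSB (45.0 CPM), EGR1 (234.2 CPM), NR4A1 (60.9 CPM) and ARC (257.4 CPM) of all 34 libraries and the lowest JUN (0.674 CPM), whereas 25(OH)D replicate 3, a castrated male, had the lowest FOS (11.6 CPM) and NR4A1 (5.29 CPM) and the highest JUN (15.0 CPM). The second of these also had the highest share of counts in the 13 mitochondrially encoded genes, 39.7% against a median of 22.1% over all libraries, whose part in its values was not tested.

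**Figure D2:**
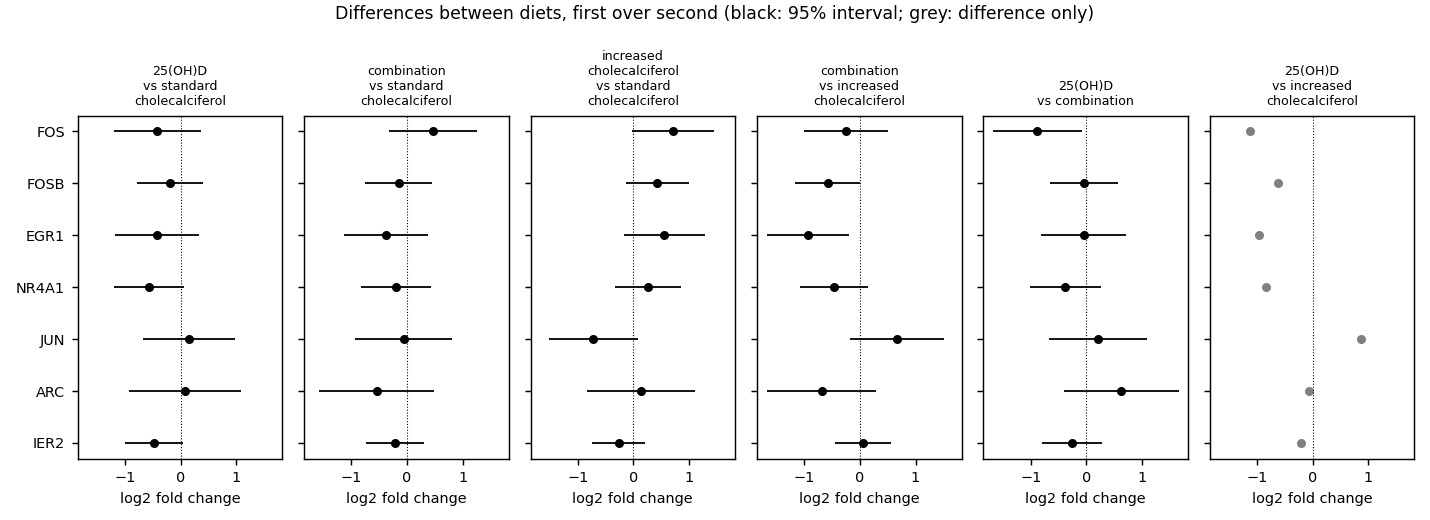
Difference of each gene between diets (log2 fold change, first diet over second) from edgeR, with 95% intervals in the 5 pairs of diets tested, and as a point alone in grey for 25(OH)D against increased cholecalciferol, which chose the genes. Of the intervals drawn, that of EGR1 in the combination against increased cholecalciferol and that of FOS in 25(OH)D against the combination leave out 0, and no tested difference passed the adjusted threshold.

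The balance of FOS, EGR1 and NR4A1 against JUN puts the contrast into 1 value per library, the mean log2 CPM of the first 3 genes minus that of JUN. It was 3.07 ± 1.74 with 25(OH)D (SD, n = 8), 3.34 ± 1.04 with the combination (n = 8), 4.58 ± 1.12 with increased cholecalciferol (n = 10) and 3.24 ± 0.92 with standard cholecalciferol (n = 8). The group on increased cholecalciferol stood above the other three, which lay within 1 SD of each other over all 34 libraries. Single libraries ran from −0.18 in 25(OH)D replicate 3 to 6.88 in increased cholecalciferol replicate 7, and every diet overlapped every other. Since the genes were picked for this contrast, the balance has no test. In file numbers 1 to 24 alone the balance was 2.84 ± 1.75 with 25(OH)D (SD, n = 7), 4.39 ± 0.46 with the combination (n = 3), 4.48 ± 1.13 with increased cholecalciferol (n = 9) and 3.09 ± 0.67 with standard cholecalciferol (n = 5), so that there the combination stood beside increased cholecalciferol.

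Sex, which did not enter the choice of genes, called 11 of 13974 genes (0.0787%), all lower in females, and 0 members. JUN alone was under the unadjusted level, among 919 genes (6.58%), at 2.55 ± 1.33 CPM in the 18 females (mean and SD) against 4.43 ± 3.30 CPM in the 16 castrated males. The difference was −0.68 (SE 0.29, edgeR adjusted p = 0.715), and −0.47 without 25(OH)D replicate 3, a castrated male. The lowest and highest JUN levels were 0.674 and 4.71 CPM in females, against 0.965 and 15.0 CPM in castrated males. FOS (−0.02, SE 0.27) and EGR1 (0.01, SE 0.26) were close to 0. Terms for an interaction of diet and sex called 0 members and 0 genes (0%), with 0 members and 384 genes (2.75%) at the unadjusted level, and 0 of both with DESeq2's likelihood ratio test.

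Many more genes changed along a regional score than between diets. The regional score of a library is the mean log2 CPM of CBLN1 and CBLN3, synaptic organisers of cerebellar granule cells, minus the mean log2 CPM of TBR1 and FEZF2, transcription factors of deep-layer neurons in the cerebral cortex. It ran from 2.39 to 9.60 over the 34 libraries without a break (largest step between neighbours 0.70), with r = −0.02 to the log2 total count. The 5 shallow libraries of file numbers 30 to 34 nevertheless lay together, between 5.23 and 6.54 (median 5.50), against medians of 3.56 in numbers 1 to 24 and 3.27 in numbers 25 to 29. CBLN1 covered 133.6 to 988.5 CPM and CBLN3 100.4 to 1051 CPM, TBR1 1.60 to 60.1 CPM and FEZF2 0.133 to 17.7 CPM. The median score was 3.62 with 25(OH)D, 5.40 with the combination, 3.54 with increased and 3.23 with standard cholecalciferol, and each diet held libraries at both ends, with a highest value of at least 7.81.

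With diet and sex held in the fit, 4 of the 7 members changed along the score: ARC, EGR1 and FOSB fell and IER2 rose. That is to be read against 5266 of 13974 genes called (37.7%), 2702 of them higher (19.3%) and 2564 lower (18.3%), with 4 members and 45.6% of genes under the unadjusted level, so that such a change is common among all genes. DESeq2 and limma-voom also called 4 members. ARC fell by 0.53 per unit of score on the log2 scale (SE 0.03, edgeR adjusted p = 6.13e-16), the 29th smallest p of all genes. EGR1 fell by 0.30 (SE 0.04, adjusted p = 2.17e-08), and IER2 rose by 0.17 (SE 0.03, adjusted p = 9.48e-06). FOSB fell by 0.11 (SE 0.04, adjusted p = 0.0343), a call lost without 25(OH)D replicate 2 (adjusted p = 0.0565), increased cholecalciferol replicate 3 (0.0521) or 7 (0.0889), or standard cholecalciferol replicate 1 (0.113) or 8 (0.0608), in file numbers 1 to 24 (0.0568), without file numbers 30 to 34 (0.0539), and with TBR1 and FEZF2 alone as the score (0.116).

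FOS, NR4A1 and JUN did not pass. FOS had a slope of 0.10 (SE 0.06, adjusted p = 0.156), and without increased cholecalciferol replicate 7, or with TBR1 and FEZF2 alone as the score, it passed (slopes of 0.15, adjusted p = 0.0180, and 0.22). NR4A1 had a slope of −0.03 (SE 0.05, adjusted p = 0.627) and JUN one of −0.01 (SE 0.07, adjusted p = 0.919). The 95% intervals of the slopes were −0.01 to 0.21 for FOS and −0.38 to −0.23 for EGR1, and the difference between the 2 slopes was not itself tested. At the ends of the score, standard cholecalciferol replicate 1 (score 9.60) had 13.8 CPM of ARC, 15.3 CPM of EGR1 and 21.0 CPM of IER2, and increased cholecalciferol replicate 6 (score 2.39) had 137.8 CPM of ARC, 159.9 CPM of EGR1 and 9.76 CPM of IER2. FOS had 23.1 CPM in the first of these libraries and 35.1 CPM in the second.

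Correlations over the 34 libraries, taken on deviations from the diet means with 100000 permutations within diets and adjusted over the 8 members, passed for ARC, EGR1 and IER2 by both Pearson's r and Spearman's rho. ARC had r = −0.95 and rho = −0.89 with the score (both adjusted permutation p = 4e-05, from the smallest p the permutations can give, 1e-05), and r = −0.93 without the 2 libraries farthest from the median score. EGR1 had r = −0.82 and rho = −0.80 (adjusted permutation p = 4e-05 each) and r = −0.75 without those 2. IER2 had r = 0.73 and rho = 0.67 (adjusted permutation p = 0.000107 and 0.00016) and r = 0.66 without them. Within file numbers 1 to 24, r was −0.96 and rho −0.89 for ARC, r −0.83 and rho −0.80 for EGR1, and r 0.73 and rho 0.54 for IER2. FOSB had r = −0.41 and rho = −0.46 (adjusted permutation p = 0.0556 and 0.0132) and r = −0.44 in file numbers 1 to 24. FOS (r = 0.31, adjusted permutation p = 0.168), NR4A1 (r = −0.07, 0.698) and JUN (r = −0.09, 0.676) had no relation that passed. The runs of file numbers 25 to 29 and 30 to 34 held 5 libraries each, too few for a value of their own.

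**Figure D3:**
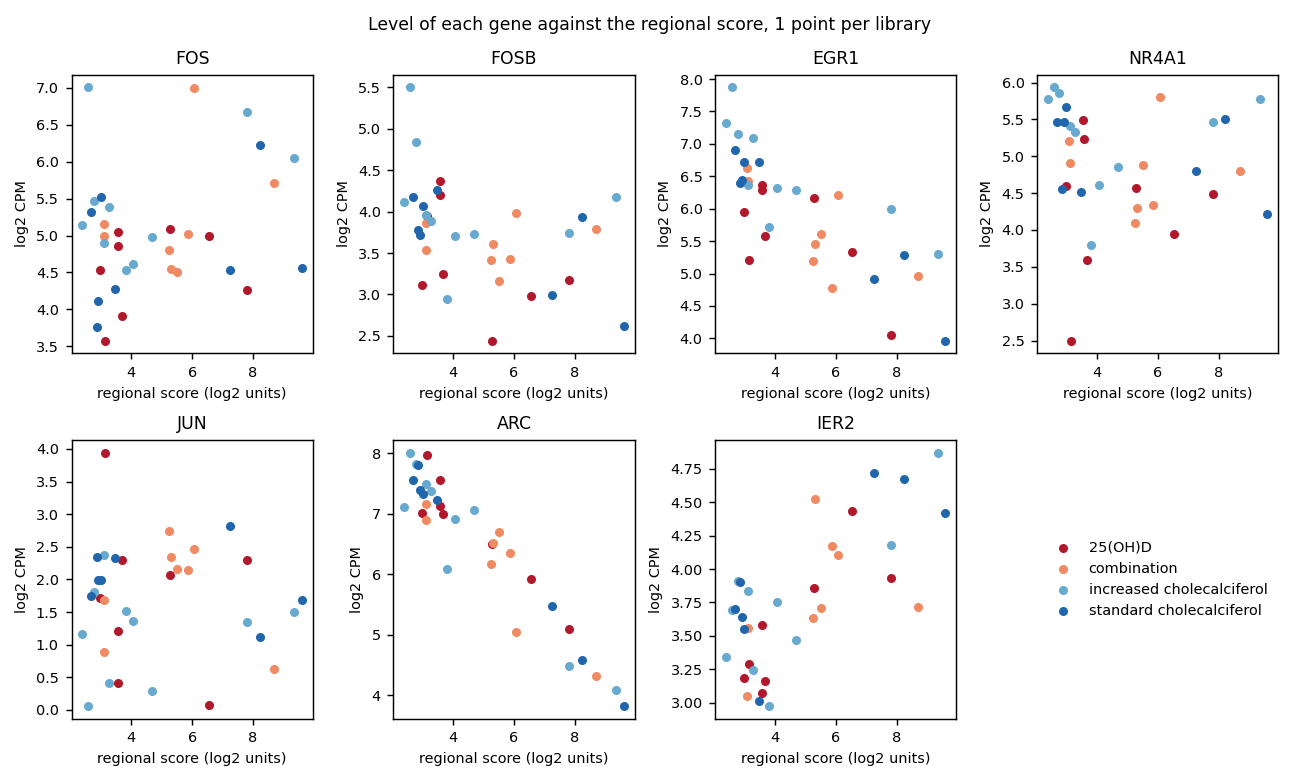
Level of each gene (log2 CPM) against the regional score (log2 units; high values are cerebellum-rich, low values cortex-rich), with 1 point per library coloured by diet. ARC and EGR1 fall along the score and IER2 rises, with correlations of −0.95, −0.82 and 0.73, and FOS, NR4A1 and JUN show no such line.

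The score moved with other cell types too. All 9 of 9 tested cerebellum markers rose along it and all 4 of 4 tested cortex markers fell, as its construction implies for CBLN1, CBLN3, TBR1 and FEZF2. The summed cerebellum list ran from 524 to 2989 CPM with 25(OH)D, from 600.0 to 2857 CPM with the combination, from 452 to 3042 CPM with increased and from 525 to 3534 CPM with standard cholecalciferol, and the summed cortex list from 14.7 to 135.3, from 7.52 to 125.1, from 11.7 to 123.7 and from 7.38 to 137.1 CPM in the same order. Beside these, 7 of 7 microglia markers and 5 of 5 tested oligodendrocyte markers fell along the score, 2 of 5 tested astrocyte markers and 1 of 4 endothelial markers fell, and of 7 neuron markers 2 rose and 3 fell. None of the 6 muscle markers changed along the score. Against standard cholecalciferol, 6 of 6 were higher with the combination (median 0.75, log2), all under edgeR's unadjusted 0.05 (4.34% of all genes). With 25(OH)D 6 of 6 were higher (median 0.58, 3 under 0.05, beside 3.23%), and with increased cholecalciferol 5 of 6 (median 0.38). In these pairs 0 passed the adjusted threshold. Their mean log2 CPM was 8.15 in file numbers 30 to 34 and 7.20 in numbers 1 to 24. With this mean added to the diet fits, no member passed in any tested pair. Among the members' diet differences only JUN then turned sign, at 0.061 in the combination against standard cholecalciferol. Whether muscle content accounts for any diet difference was not tested. The neuron list summed to between 3636 and 8046 CPM and no marker in any of these lists was at 0 throughout. The part of cell composition in the slopes of ARC, EGR1, FOSB and IER2 was not tested.

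FOS and EGR1 varied together between animals after adjustment for the regional score and sex together. Of the 28 pairs of members, 9 had an adjusted permutation p under 0.05 on deviations from the diet means. The share over all pairs of genes was not computed, so this count is not read as particular to the members. The strongest was EGR1 with ARC (r = 0.76, rho = 0.72, adjusted permutation p = 0.00028), followed by FOS with NR4A1 (r = 0.67, rho = 0.71, adjusted permutation p = 0.00042). ARC with IER2 (r = −0.62) and EGR1 with IER2 (r = −0.55) ran in opposite directions, as did FOS with JUN (r = −0.43, rho = −0.46, adjusted permutation p = 0.0282). FOSB went with EGR1 (r = 0.60), NR4A1 (r = 0.50) and ARC (r = 0.45), and EGR1 with NR4A1 (r = 0.49). FOS and EGR1 themselves had r = 0.19 and rho = 0.21, which did not pass. Without the 2 libraries farthest from the median, r was 0.67 for EGR1 with ARC, 0.62 for FOS with NR4A1, −0.51 for ARC with IER2, 0.64 for FOSB with EGR1, −0.53 for EGR1 with IER2 and −0.50 for FOS with JUN. In file numbers 1 to 24 the pairs EGR1 with ARC (r = 0.81), FOS with NR4A1 (0.66), ARC with IER2 (−0.64) and FOSB with EGR1 (0.61) passed, and the other 5 did not, FOS with JUN being at −0.31.

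When the deviations were also adjusted for score and sex, FOS with EGR1 had r = 0.80 and rho = 0.83 (adjusted permutation p = 9.33e-05 for both), EGR1 with NR4A1 r = 0.76 and FOS with NR4A1 r = 0.74 (both 9.33e-05). FOS with FOSB had r = 0.59 (adjusted permutation p = 0.00308). The 3 highest r of the 28 were thus those among FOS, EGR1 and NR4A1, which were chosen for a shared direction between diets in these libraries. Pairs of other genes were not put through this adjustment, so whether such r are common is not known. Whether a correlation differed from its value before adjustment was not tested. EGR1 with ARC went to −0.10, ARC with IER2 to 0.34 and EGR1 with IER2 to 0.10, none of which passed. JUN was opposed to EGR1 (r = −0.57, rho = −0.58, adjusted permutation p = 0.0103) and to FOS (r = −0.45, adjusted permutation p = 0.0201), and to NR4A1 with r = −0.38, which did not pass. JUN was chosen for the direction opposite to these genes, so the signs are not independent of that choice. Over the 34 fits that each left out 1 library, FOS with EGR1 stayed between 0.78 and 0.83, FOS with NR4A1 between 0.70 and 0.77, EGR1 with NR4A1 between 0.71 and 0.80, and EGR1 with JUN between −0.63 and −0.49. NR4A1 with JUN weakened to −0.19 without 25(OH)D replicate 3. In file numbers 1 to 24, r was 0.84 for FOS with EGR1, 0.73 for FOS with NR4A1, 0.76 for EGR1 with NR4A1, −0.46 for EGR1 with JUN and −0.32 for FOS with JUN. Adjusted over the 21 pairs of the 7 tested genes, the first 3 passed there (highest adjusted permutation p 0.00056), as did NR4A1 with IER2 (r = 0.51, adjusted permutation p = 0.0397), whereas FOS with FOSB (0.0596), EGR1 with JUN (0.115) and FOS with JUN (0.229) did not.

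**Figure D4:**
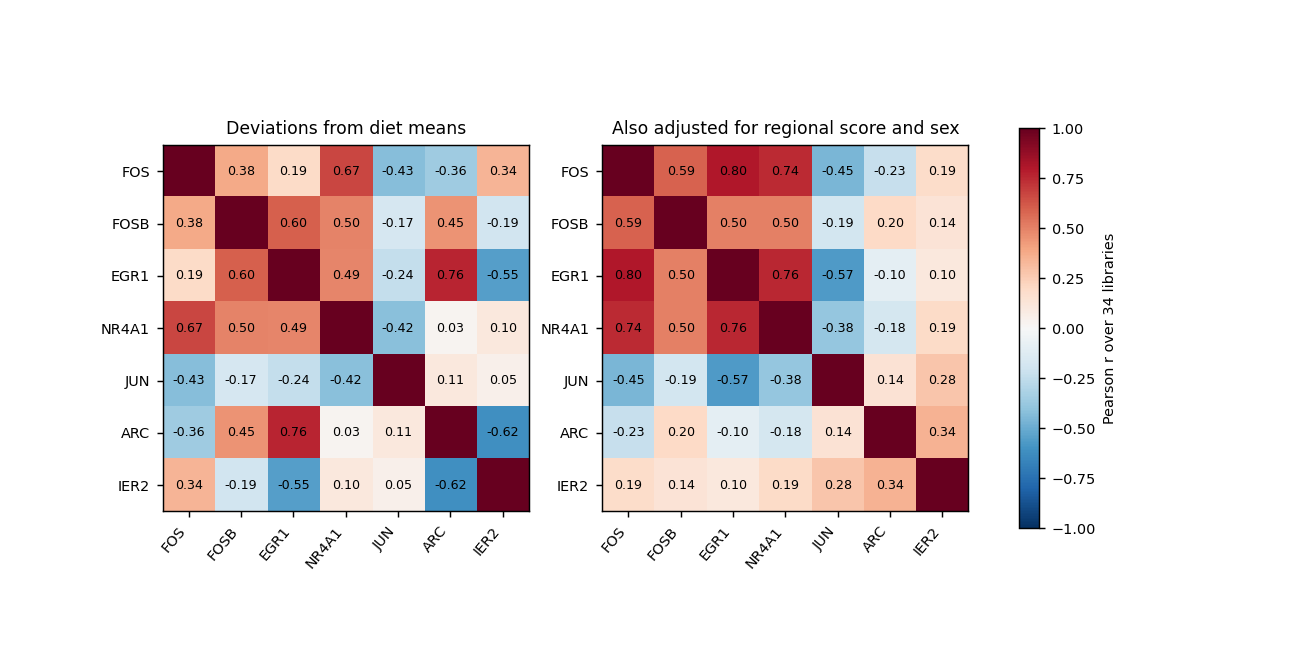
Pearson r between the 7 countable genes over 34 libraries, on deviations from the diet means (left) and after also adjusting for regional score and sex (right). FOS with EGR1 goes to 0.80 on the right, against 0.19 on the left, EGR1 with ARC goes to −0.10, against 0.76, and JUN has negative r with FOS, EGR1 and NR4A1 on both sides.

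Measures of the library moved with some of the members. Of 28 relations to depth, mitochondrial share, share of reads outside annotated genes and muscle level, 5 passed by Pearson's r. The share over all genes was not computed. These relations were not adjusted for the regional score, which ARC, EGR1 and IER2 also followed. Depth had r = −0.02 with the score, and the log2 sum of the muscle markers r = −0.10. Whether the mitochondrial share and the share of reads outside annotated genes follow the score was not tested. The mitochondrial share, 14.2% to 39.7% of gene counts, went with ARC (r = 0.71, rho = 0.76, adjusted permutation p = 0.00028), with IER2 (r = −0.68, rho = −0.69, adjusted permutation p = 0.0007) and with FOS (r = −0.53, rho = −0.54, adjusted permutation p = 0.00877). Reads outside annotated genes, 16.4% to 29.9% of the assigned and unassigned total, went with EGR1 (r = −0.57, rho = −0.58, adjusted permutation p = 0.0127) and NR4A1 (r = −0.46, rho = −0.49, adjusted permutation p = 0.0343). Without the 2 libraries farthest from the median of the measure, these r were 0.72, −0.74, −0.46, −0.56 and −0.39, and in file numbers 1 to 24 they were 0.67, −0.64, −0.48, −0.52 and −0.41, of which the first 2 passed the adjusted threshold there. By Spearman's rho 4 more passed, depth with FOS (0.46), mitochondrial share with EGR1 (0.50) and reads outside genes with FOSB (−0.45) and JUN (0.43). With both shares added to score and sex, FOS with EGR1 was at r = 0.69, EGR1 with NR4A1 at 0.65 and FOS with NR4A1 at 0.57 (adjusted permutation p = 0.00028, 0.00168 and 0.00483), and EGR1 with JUN (−0.49, adjusted permutation p = 0.0551) and FOS with JUN (−0.31, 0.249) no longer passed.

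Other genes of the same pathways were described from 5 lists. Along the score, whose background is 19.3% of genes higher and 18.3% lower, the lists moved in both directions. Of 5 tested AP-1 and bZIP partners, 0 rose and 2 fell (MAFF −0.24, SE 0.06, and BATF3 −0.18, SE 0.06), with a median slope of −0.09 against 0.00 over all genes. Of 10 other immediate early transcription factors, EGR2, a close relative of EGR1, fell by 0.53 (SE 0.05) and KLF10 fell by 0.22 (SE 0.03), and NR4A2, a relative of NR4A1 with a role in dopamine neurons, rose by 0.13 (SE 0.03), with a median of −0.09. NPAS4, a neuron-specific activity gene, did not pass (−0.08, SE 0.04).

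Among 14 feedback regulators 3 rose and 4 fell, with a median of −0.01. The phosphatases that switch off MAP kinases split: DUSP5 rose by 0.39 (SE 0.03) and DUSP4 by 0.21 (SE 0.03), whereas DUSP6 fell by 0.35 (SE 0.03) and DUSP14 fell by 0.08 (SE 0.02). IER5, of the same family as IER2, rose by 0.14 (SE 0.02), and GADD45B, a stress-response gene, and the kinase SIK1 fell by 0.17 (SE 0.03) and by 0.16 (SE 0.04). Of 11 neuronal effector genes, 1 rose and 5 fell, with a median of −0.02. PTGS2, the inducible cyclooxygenase, fell by 0.61 (SE 0.04), PLK2 fell by 0.48 (SE 0.05), NPTX2 fell by 0.28 (SE 0.04), HOMER1 fell by 0.22 (SE 0.03) and RGS2 fell by 0.10 (SE 0.02), and GADD45G rose by 0.13 (SE 0.03). Of 14 upstream kinases and factors, 3 rose and 2 fell, with a median of 0.01: RPS6KA5, a histone kinase, rose by 0.27 (SE 0.02), ELK4 by 0.10 (SE 0.04) and CREB1 by 0.08 (SE 0.02), whereas the SRF co-activator MRTFB fell by 0.31 (SE 0.02) and MAP2K1 fell by 0.28 (SE 0.03).

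**Figure D5:**
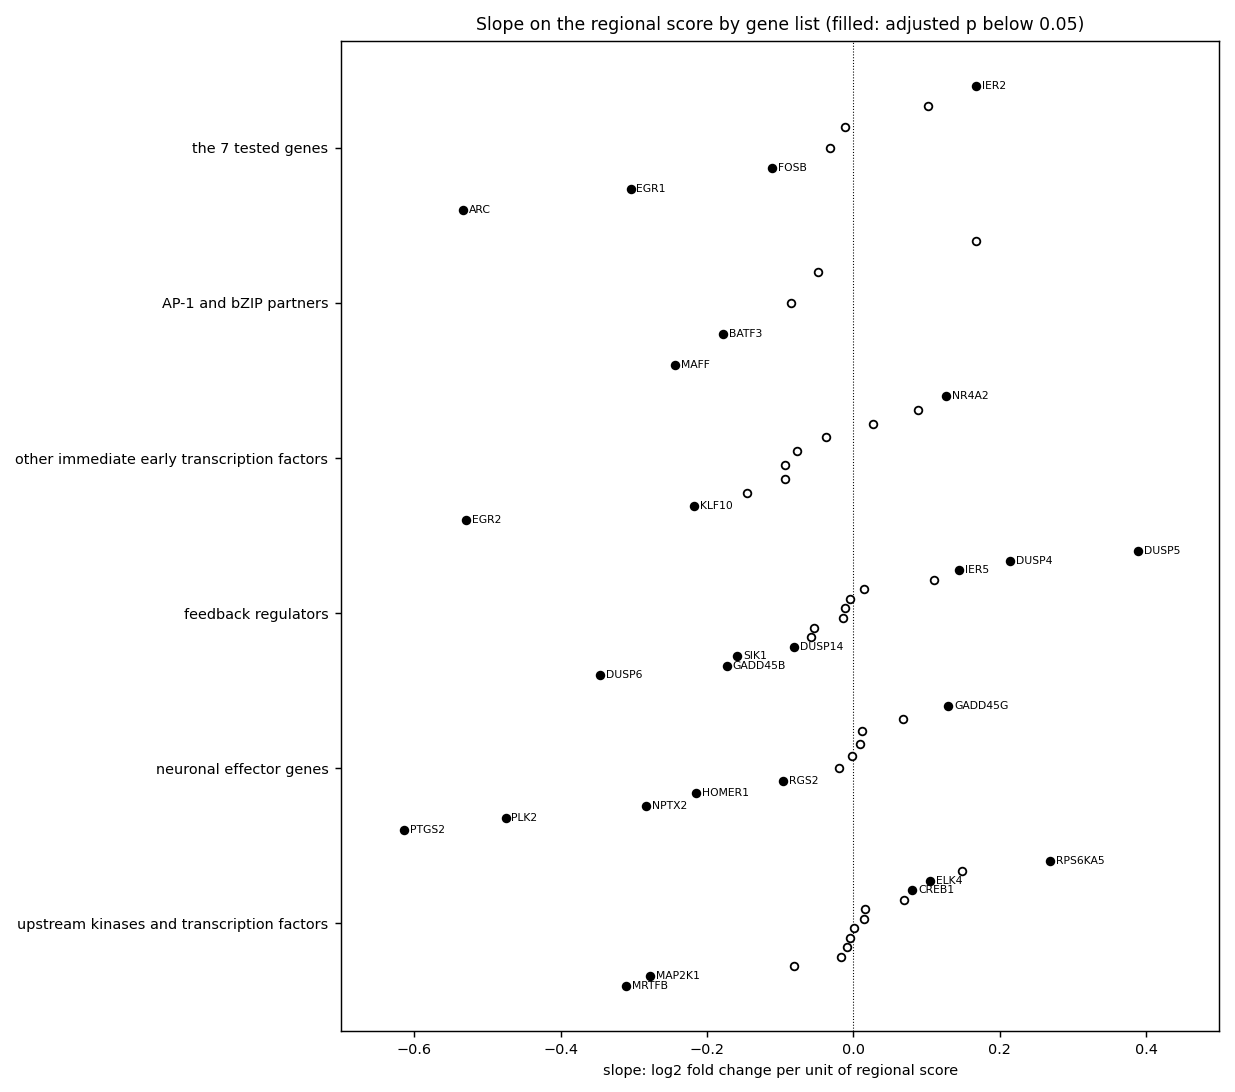
Slope of each tested gene on the regional score (log2 fold change per unit of score), by list, with filled and named points at an edgeR adjusted p under 0.05. ARC, EGR2, PTGS2 and PLK2 lie lowest, near −0.5 or below, and DUSP5 highest at 0.39.

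Between diets, 0 genes of any list passed the adjusted threshold. In 25(OH)D against standard cholecalciferol the smallest unadjusted p in the lists belonged to VGF, a secreted neuropeptide precursor (−0.51, SE 0.16, adjusted p = 1.00), and NRN1 (−0.72, SE 0.31, adjusted p = 1.00), and the medians of the 5 lists lay between −0.30 for feedback regulators and −0.04 for neuronal effectors, against −0.01 over all genes. In the combination against standard cholecalciferol they belonged to TRIB1 (−0.50, SE 0.18) and MYC (1.70, SE 0.63), and in increased against standard cholecalciferol to MYC (1.69, SE 0.57) and KLF4 (1.03, SE 0.38). For the combination against increased cholecalciferol, NPAS4 (−0.96, SE 0.30) and VGF (−0.41, SE 0.15) came first, beside EGR1, and for 25(OH)D against the combination DUSP1 (−0.995, SE 0.32), the phosphatase induced together with FOS, and MYC (−1.67, SE 0.66). Adjusted p in these last 4 pairs were 0.999, 0.623, 0.931 and 0.653, the same for both genes of a pair. MYC averaged only 1.38 CPM. Between sexes, MAPK8, a stress-activated kinase that phosphorylates JUN, was at 0.23 (SE 0.09, adjusted p = 0.678). In 25(OH)D against increased cholecalciferol, the other immediate early transcription factors had a median of −0.63 (8 of 10 below 0), the neuronal effectors one of −0.51 (9 of 11), the upstream genes one of −0.17 (12 of 14), the feedback regulators one of −0.16 (11 of 14) and the AP-1 partners one of −0.09 (4 of 5), given as a description beside a median of 0.00 over all genes. In the same pair the tested oligodendrocyte markers had a median of −0.46 (3 of 5 below 0), the cortex markers one of −0.29 (3 of 4) and the neuron markers one of −0.24 (5 of 7). The endothelial markers had one of −0.17 (3 of 4 below 0), the astrocyte markers −0.14 (3 of 5) and the microglia markers −0.07 (4 of 7). Above 0 were the medians of the skeletal muscle markers, 0.18 (1 of 6 below 0), and of the cerebellum markers, 0.06 (3 of 9). The part of these cell types in the values of the early gene lists was not tested.

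The genes whose pattern was most like that of FOS, by Pearson r of log2 CPM over the 34 libraries among 11127 tested genes with a symbol, were CUL4B (0.83), OGFRL1 (0.82), ARCN1 (0.82), TPST1 (0.82) and SLC18A2 (0.81). For JUN they were PEA15 (0.82), WDR25 (0.81), DPYSL2 (0.79), SAP30BP (0.78) and PRKAG1 (0.77). No gene of the immediate early lists was among either 5. The nearest genes of the other members were looked up after their values had been seen: for ARC the postsynaptic gene DDN (0.96) led, for EGR1 the dynein light chain DYNLL1 (0.92), for NR4A1 NSF (0.86), for FOSB SRI (0.73) and for IER2 SHF (0.79), with EN2, a transcription factor of the cerebellum and midbrain, close behind (0.78). GADD45B, of the feedback regulators, was among the 5 nearest to FOSB (0.72). In RefSeq's pig annotation (Sscrofa11.1), used for names and neighbours only, no member overlapped another gene, and NR4A1 was listed as a pseudogene. STX10, a neighbour of IER2 also chosen after its value was seen, rose along the score by 0.12 (SE 0.02, edgeR adjusted p = 5.31e-07), and CACNA1A, on the other side, had 0.05 (SE 0.06, adjusted p = 0.530).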

How the data were processed

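Per the labels, RNA from frozen tissue was made into QuantSeq 3′ libraries, and the submitters' processing notes name FastQC, TopHat, HTSeq and DESeq2; the build, annotation and versions behind the counts were not given in the sources read. The authors deposited 1 table of raw read counts per gene for each of the 34 samples, and its 5 closing category lines stayed out of library sizes and tests (reads outside annotated genes 16.4% to 29.9%, ambiguous 3.63% to 4.68%, not uniquely aligned 11.2% to 20.7%). No pair of tables was identical. Counting by strand is not stated, so antisense transcripts cannot be told apart.

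Symbols were matched by Ensembl identifier (15029 of 31907). Genes were kept with filterByExpr by diet (13974), scaled by TMM and fitted in edgeR 4.0.16 (R 4.3.3) with diet and sex, or diet, sex and the regional score. DESeq2 1.42.0 and limma 3.58.1 were alternatives, beside RLE scaling, no filter, subsets of libraries, added covariates, other scores and each library left out. CPM uses TMM-scaled library sizes, and log2 CPM a prior count of 3. Calls are at a Benjamini-Hochberg adjusted p under 0.05. The same fits were also run on counts simulated with known changes. For 25(OH)D against standard cholecalciferol, 10.4% of genes changed by 0.5 (log2) were called, 50.7% of those changed by 1 and 92.4% of those changed by 2. There 3 of 105 calls were false. Along the score, 17.9% of genes with a slope of 0.1 were called, 65.7% at 0.2 and 98.5% at 0.4, and 9 of 130 calls were false. The spread of these simulated counts came from the fit with diet and sex, without the score. It therefore includes any spread that goes with the score, and these rates need not hold for the score fit itself. The relations to library measures, the adjustment for mitochondrial and unannotated shares, and the adjusted pairs in file numbers 1 to 24, were added after the data were seen.

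The members and all lists were chosen with earlier results of these data known. Named genes are the 8 members, every list gene past the threshold in a comparison and otherwise the 2 with the smallest p, the 5 genes nearest to FOS and to JUN, and the 4 score genes; 1 gene that the rule names is not reported here. Replicates are separate animals, per the series' design text. No sequences were used here.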

Additional observations from a re-analysis of the deposited data

How the results depend on the processing

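Of the values for single genes and pairs of genes, 673 stayed under an alternative, 56 turned sign, 16 lost and 11 gained the call. A value stayed if it kept direction and side of the threshold. In 25(OH)D against increased cholecalciferol, which has no test, the 73 that stayed kept direction and lay within 1 SE of the main value. Of the main counts and balances 170 stayed and 7 moved. A count stayed if it was equal or close to the main count, and a balance if it lay within 1 SD. The causes of the changes were not tested. The counts of all genes called that moved were, for the combination against increased cholecalciferol, 1 without file numbers 30 to 34, 2 in file numbers 1 to 24 and 1 with a term for runs of file numbers; for 25(OH)D against the combination 2 without numbers 30 to 34 and 8 in numbers 1 to 24; and for females against castrated males 18 with the run term. The balance of the combination was 4.39 in numbers 1 to 24. Differences that turned sign in numbers 1 to 24 were FOS 0.062 and ARC −0.078 (25(OH)D against standard), FOSB 0.10 and NR4A1 0.54 (combination against standard), ARC −0.27 and IER2 0.082 (increased against standard), FOS 0.42, NR4A1 0.075, JUN −0.19 and IER2 −0.18 (combination against increased), ARC 0.19 (25(OH)D against increased), and FOS 0.064 and ARC 0.23 (sex). Without numbers 30 to 34 they were FOSB 0.069, EGR1 0.0040 and NR4A1 0.20 (combination against standard), FOS 0.30, JUN −0.041 and IER2 −0.13 (combination against increased), ARC 0.042 (25(OH)D against increased) and FOS 0.17 (sex). With the run term they were JUN −0.14 (25(OH)D against standard), FOSB 0.062 and NR4A1 0.29 (combination against standard), FOS 0.082 and IER2 −0.21 (combination against increased) and FOS 0.20 (sex). With the score added they were ARC −0.053 (increased against standard), ARC 0.011 and IER2 −0.068 (combination against increased), ARC 0.22 (25(OH)D against increased), and EGR1 −0.0097 and ARC 0.13 (sex), and with the muscle level added JUN 0.061 (combination against standard). With limma-voom they were JUN −0.086 (25(OH)D against standard), FOSB 0.025 (combination against standard), IER2 −0.0058 (combination against increased), ARC 0.17 (25(OH)D against increased), FOS 0.11 and EGR1 −0.11 (sex) and the score slope of JUN 0.0012; with DESeq2 EGR1 −0.0018 (sex). The slope of JUN was 0.0060 on CBLN1 and CBLN3 alone. With CPM of total counts the score correlations of NR4A1 and JUN were 0.077 and 0.020, and those of ARC with NR4A1 and JUN −0.076 and −0.015. Adjusting for score and sex turned FOSB with IER2 (0.14), EGR1 with ARC (−0.10), EGR1 with IER2 (0.10), NR4A1 with ARC (−0.18) and ARC with IER2 (0.34). Adding the mitochondrial and unannotated shares, chosen after seeing the data, gave FOS with ARC 0.043, FOSB with IER2 0.22, EGR1 with IER2 0.14 and ARC with IER2 0.45. Leaving out 1 library at a time, ranges that crossed 0 or changed a call were −0.36 to 0.31 (JUN) and −0.14 to 0.28 (ARC) for 25(OH)D against standard, −0.18 to 0.14 (JUN) for the combination against standard, −0.056 to 0.32 (ARC) for increased against standard, −0.050 to 0.22 (IER2) for the combination against increased, −0.23 to 0.071 (FOSB), −0.17 to 0.13 (EGR1) and −0.30 to 0.37 (JUN) for 25(OH)D against the combination, −0.26 to 0.12 (ARC) for 25(OH)D against increased, −0.16 to 0.15 (FOS), −0.086 to 0.089 (EGR1) and −0.14 to 0.068 (ARC) for sex, and 0.06 to 0.15 (FOS), −0.14 to −0.08 (FOSB) and −0.042 to 0.021 (JUN) for the score. For 25(OH)D against increased, JUN ran from 0.39 to 1.04 without crossing 0. No paired analysis was possible because replicates are separate animals and the labels name no pairs of animals between diets. Depth limits JUN and JUNB most, since the shallowest library held 1.34 M counts and JUN as little as 1 read.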
